A study of Mus musculus with 10 samples.

Results

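A set of 10 genes of principal cells was examined in the renal cortex of 10 mice: the water channel genes Aqp2, Aqp3 and Aqp4, the vasopressin receptor gene Avpr2, the potassium channel genes Kcnj10 and Kcne1, the transcription factor genes Elf5, Gata3 and Tfcp2l1, and Npnt, which encodes the matrix protein nephronectin. They were taken by name from the platform annotation, each as its probe set of highest mean, and all 10 were found among 18193 named genes. Every mouse was of the FVB/N strain, 20 weeks old, and had undergone ablation of 2/3 of a kidney followed by uninephrectomy, so all kidneys studied were remnants. Treatment began when 6 weeks had passed since the ablation and 4 since the uninephrectomy: 5 mice received losartan at 500 mg/l and 5 received aliskiren at 50 mg/kg per day, each for 6 weeks. Losartan blocks the type 1 angiotensin II receptor, and aliskiren inhibits renin. The comparison asks how the drugs differ in the remnant kidney. No group without a drug was analysed here.

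Principal cells line the connecting tubule and collecting duct, where the final volume and potassium content of urine are set. Vasopressin binds its receptor on their blood-facing side, cAMP rises, and aquaporin-2 is carried to the urine-facing membrane, while aquaporin-3 and aquaporin-4 let the water leave on the blood-facing side. Their potassium channels set the membrane voltage and recycle or secrete potassium. Several of these genes are active elsewhere too: Kcne1 in the proximal tubule, Kcnj10 in the distal convoluted tubule and Gata3 in urothelium and glomerular mesangium, so the name principal cell is a shorthand for the list.

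The upstream sequences of Aqp2, Aqp3 and Kcnj10 are shown because they encode the regulated water channel, a channel of the blood-facing membrane and the potassium channel of the lowest limma p among the members. RefSeq windows of 250 bases on GRCm38.p6 that end at the annotated gene start are printed 5′ to 3′ on the strand of the gene. Capitals mark matches, on either strand, to 3 short motifs. The first, TGACG, is the core of the element through which genes respond to cAMP. The second, GATAA, is the core that factors of the Gata family recognise. The third, TATAAA, is the box that places the start of transcription in some promoters. The Aqp2 window is chr15:99578806-99579055 on the plus strand, the Aqp3 window chr4:41098184-41098433 on the minus strand and the Kcnj10 window chr1:172340960-172341209 on the plus strand.
Aqp2: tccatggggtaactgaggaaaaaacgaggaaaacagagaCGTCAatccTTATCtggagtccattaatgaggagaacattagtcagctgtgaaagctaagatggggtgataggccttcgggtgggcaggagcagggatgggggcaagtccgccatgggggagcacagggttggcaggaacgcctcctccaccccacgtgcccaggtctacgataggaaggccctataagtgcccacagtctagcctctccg
Aqp3: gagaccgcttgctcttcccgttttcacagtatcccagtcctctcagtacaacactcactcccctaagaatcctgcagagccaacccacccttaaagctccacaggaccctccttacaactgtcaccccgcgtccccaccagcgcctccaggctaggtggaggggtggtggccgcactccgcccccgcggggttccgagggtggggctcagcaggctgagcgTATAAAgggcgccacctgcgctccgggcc
Kcnj10: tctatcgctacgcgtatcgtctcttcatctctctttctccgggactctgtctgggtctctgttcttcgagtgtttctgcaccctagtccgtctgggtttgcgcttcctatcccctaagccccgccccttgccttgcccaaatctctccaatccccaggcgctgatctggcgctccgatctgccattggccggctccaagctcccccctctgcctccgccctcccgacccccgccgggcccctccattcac
The Aqp2 window held 1 TGACG match, beginning 211 bases before the gene start, and 1 GATAA match, beginning 202 bases before it, both on the opposite strand. The Aqp3 window held 1 TATAAA match 29 bases before the start, and none of the 3 motifs was found in the Kcnj10 window. Of 32851 RefSeq windows of this length, not all ending at a gene start, 17.8% held TGACG, 22.6% GATAA and 12.4% TATAAA. Such matches are therefore common and describe letters only.

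All expression values are log2 units made by RMA (a method that corrects background, aligns the arrays and sums up the probes of a set), a difference is aliskiren minus losartan, and a gene was tested where its mean was at least 5.53, the middle value of the probe sets other than controls. Array medians lay between 5.52 and 5.56. Of the members 9 passed this level and Elf5, at a mean of 5.05, did not. All 10 proximal tubule markers and all 11 intercalated cell markers on the array lay above the level, as did 5 of 6 podocyte markers, and 4 of 8 medulla and papilla markers. Losartan mouse 3 stood apart: its 3 fat markers above the level averaged 12.21 against 6.50 to 6.64 in the other losartan mice and 6.40 to 9.76 with aliskiren, its 7 injured tubule markers averaged 10.69 against 7.44 to 8.95 and 7.67 to 9.25, and the urothelial gene Upk3a stood at 8.29 against 4.70 to 5.08 and 4.83 to 5.68. Results that rest on losartan mouse 3 are therefore given with and without it. Among the aliskiren mice, fat markers were highest in mouse 3 (9.76) and mouse 2 (8.01), and injured tubule markers in mouse 1 (9.25). In whole cortex, fewer principal cells and less RNA per cell cannot be told apart.

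No member differed between the drugs past the threshold. With limma, 0 of 9 members passed at an adjusted p under 0.05, against 0 of 11486 genes (0%), and the lowest adjusted p among the members was 0.945. Kcnj10 and Gata3, 2 of the members, had an unadjusted p under 0.05, both lower with aliskiren. Of all genes, 4.72% had such a p, 2.53% lower and 2.19% higher. An ordinary t statistic left 1 member, Kcnj10, at that level. In 7 of 9 members the mean was lower with aliskiren, where 53.8% of all genes tested were lower, and the median difference was -0.16 against -0.01 over all genes tested. The means of markers of several other cell types were also lower with aliskiren: 10 of 11 for intercalated cells (median -0.17), 5 of 6 for the distal convoluted and connecting tubule (median -0.28) and 7 of 7 for endothelium (median -0.27), against 6 of 10 for the proximal tubule and 2 of 5 for the thick ascending limb. Their part in the members' differences was not tested. The groups overlapped in every member, where 0.914% of all genes did not overlap. The 95% interval lay within a change of 1.5-fold in both directions for only 4 of the 9 members tested, against 87.7% of all genes tested.

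**Figure D1:**
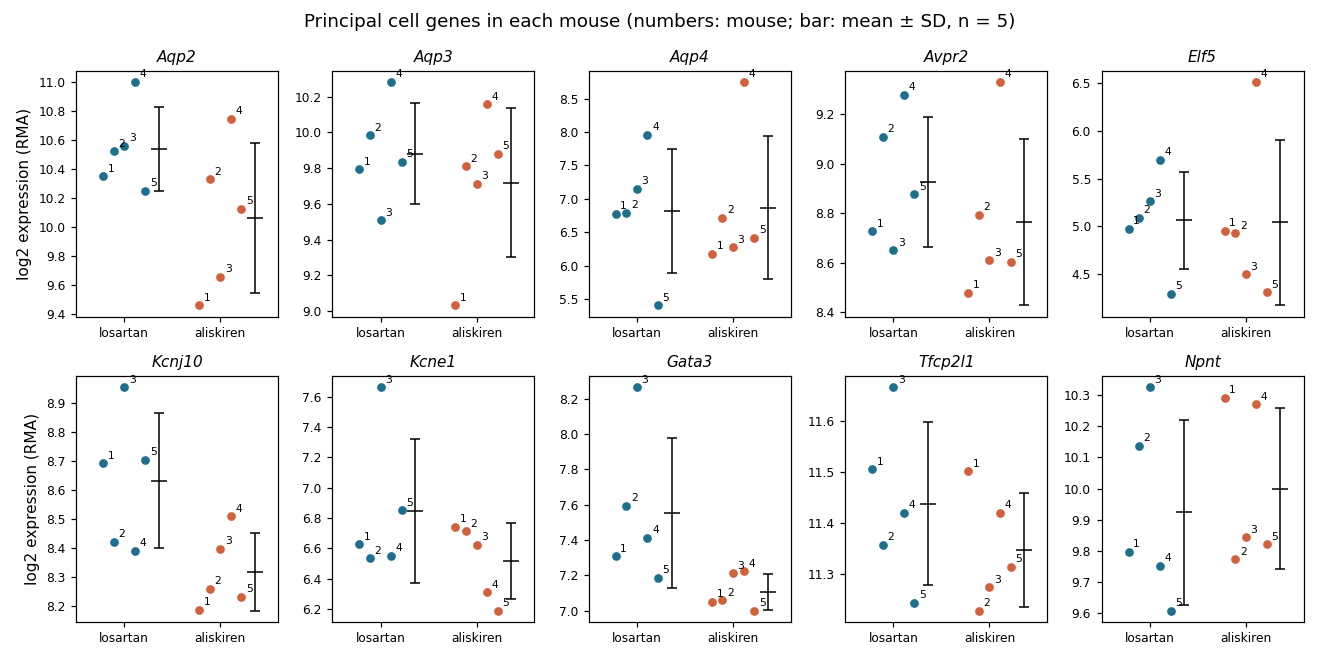
RMA log2 expression of the 10 genes in each mouse, losartan in blue and aliskiren in orange, numbered by mouse, with the mean and SD of each group (n = 5). The groups overlap in all 10 panels. Losartan mouse 3 is highest in the 5 lower panels, and losartan mouse 4 or aliskiren mouse 4 is highest in the 5 upper panels.

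Aqp2 encodes the water channel that vasopressin moves to the urine-facing membrane. Its log2 level was 10.35, 10.52, 10.56, 10.998 and 10.25 in losartan mice 1 to 5 and 9.46, 10.33, 9.66, 10.74 and 10.13 in aliskiren mice 1 to 5. Aliskiren mice 1, 3 and 5 lay below every losartan mouse, and aliskiren mouse 4 lay above all but losartan mouse 4. The means were 10.53 ± 0.29 (SD, n = 5) and 10.06 ± 0.52, a difference of -0.47 (limma SE 0.24, 95% interval -0.99 to 0.05, adjusted p = 0.945; exact permutation p = 0.127, two-sided). The difference was -0.32 without aliskiren mouse 1 and -0.64 without aliskiren mouse 4.

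Aqp3 and Aqp4 encode the channels of the blood-facing membrane. Aqp3 ranged from 9.51 to 10.28 with losartan (median 9.84) and from 9.03 to 10.16 with aliskiren (median 9.81), at a difference of -0.16 (SE 0.20). That difference rested on aliskiren mouse 1, the lowest of all, and was 0.01 without it. A pair of further Aqp3 probe sets above the level each gave -0.17, and the remaining one, at a mean of 3.32, lay below the level.

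Aqp4 was the most variable member. Losartan mice 1 to 5 had log2 levels of 6.78, 6.79, 7.15, 7.96 and 5.40, and aliskiren mice 1 to 5 had 6.17, 6.72, 6.28, 8.75 and 6.41. Its lowest and highest mice, losartan 5 and aliskiren 4, were 10.2-fold apart. Its SD within drug groups was 1.00, above that of 99.2% of all genes tested. The means were 6.82 ± 0.92 and 6.87 ± 1.07, a difference of 0.05 with a 95% interval from -1.19 to 1.29. The sign depended on single mice, with -0.42 without aliskiren mouse 4 and -0.30 without losartan mouse 5. A second probe set at a mean of 5.13 followed the first over the 10 mice (Pearson r = 0.97, as a description).

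Avpr2 encodes the vasopressin receptor that starts the cascade. It ranged from 8.65 to 9.28 with losartan (median 8.88) and from 8.48 to 9.33 with aliskiren (median 8.61), at a difference of -0.16 (SE 0.17, 95% interval -0.55 to 0.22). As for Aqp2, losartan mouse 4 and aliskiren mouse 4 had the highest levels of their groups, at 9.28 and 9.33, and aliskiren mouse 1 had the lowest of all. The difference was -0.31 without aliskiren mouse 4 and -0.08 without losartan mouse 4.

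**Figure D2:**
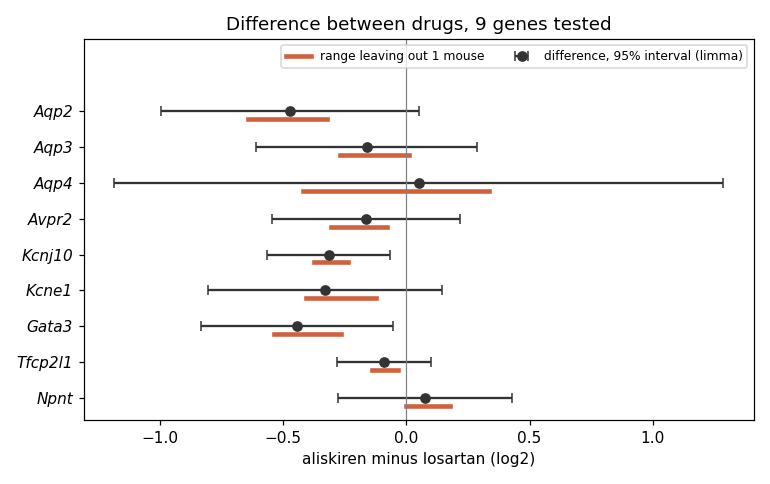
Difference between aliskiren and losartan on the log2 scale for the 9 genes tested, with limma's 95% interval (black) and the range of values when each mouse is left out in turn (orange). The interval excludes 0 for Kcnj10 and Gata3 before adjustment only. For Aqp3, Aqp4 and Npnt the orange bar crosses 0.

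Kcnj10 encodes the inward rectifier Kir4.1 of the blood-facing membrane, and it had the smallest unadjusted limma p of the members, 0.0180, while Gata3 had the smallest exact permutation p. Its log2 level was 8.69, 8.42, 8.96, 8.39 and 8.71 in losartan mice 1 to 5 and 8.19, 8.26, 8.40, 8.51 and 8.23 in aliskiren mice 1 to 5. Of the aliskiren mice, 3 lay below every losartan mouse, while aliskiren mouse 4 lay above losartan mice 2 and 4 and aliskiren mouse 3 just above losartan mouse 4. The means were 8.63 ± 0.23 and 8.32 ± 0.13, a difference of -0.32 (limma SE 0.11, 95% interval -0.56 to -0.07, adjusted p = 0.945; exact permutation p = 0.0397). Without losartan mouse 3 it was -0.24, and over the mice left out in turn it ran from -0.38 to -0.24. Its usual channel partner Kcnj16 had a difference of 0.09 (SE 0.07), in the other direction, and 0.03 without losartan mouse 3.

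Kcne1 encodes a small subunit that slows the potassium channel encoded by Kcnq1. Its log2 level was 6.63, 6.53, 7.66, 6.55 and 6.85 in losartan mice 1 to 5 and 6.74, 6.71, 6.62, 6.31 and 6.19 in aliskiren mice 1 to 5. Losartan mouse 3 stood far above the rest, losartan mouse 5 lay slightly above every aliskiren mouse, and losartan mice 1, 2 and 4 lay among them. The difference was -0.33 (SE 0.21) with all mice and -0.12 without losartan mouse 3. Kcnq1 itself was at 8.04 ± 0.23 in losartan mice against 7.60 ± 0.10 in aliskiren mice. The difference was -0.45 (SE 0.11, limma adjusted p = 0.945; exact permutation p = 0.00794, the smallest possible), and the lowest losartan mouse, at 7.85, lay above the highest aliskiren mouse, at 7.70. Of all genes tested, 0.914% likewise had groups that did not overlap.

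Gata3 encodes a transcription factor of the nephric duct that stays active in collecting duct cells. Its log2 level was 7.31, 7.59, 8.27, 7.41 and 7.19 in losartan mice 1 to 5 and 7.05, 7.06, 7.21, 7.22 and 7.0004 in aliskiren mice 1 to 5. The aliskiren mice lay close together and only 2 of them, mice 3 and 4, reached the level of the lowest losartan mouse. The means were 7.55 ± 0.43 and 7.11 ± 0.10, a difference of -0.44 (limma SE 0.18, adjusted p = 0.945; exact permutation p = 0.0238), or -0.27 without losartan mouse 3. The fat, injury and urothelial markers given above were highest in the same mouse, and their part in the Gata3 and Kcne1 levels was not tested.

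Tfcp2l1, a transcription factor gene of the collecting duct, was the steadiest member. It ranged from 11.24 to 11.67 with losartan and from 11.23 to 11.50 with aliskiren, and its difference of -0.09 (SE 0.09) had a 95% interval from -0.28 to 0.10, and was -0.03 without losartan mouse 3. Elf5, an ETS factor gene restricted to principal cells within the kidney, had log2 levels of 4.97, 5.09, 5.26, 5.70 and 4.29 in losartan mice 1 to 5 and 4.95, 4.92, 4.49, 6.51 and 4.30 in aliskiren mice 1 to 5. Only losartan mouse 4 and aliskiren mouse 4 exceeded the level of 5.53, and the means of 5.06 ± 0.51 and 5.04 ± 0.87 differed by -0.02. A second Elf5 probe set, at a lower mean of 4.18, did not repeat the high value of aliskiren mouse 4. It had 4.20 there and was highest in aliskiren mouse 1, at 4.37 (Pearson r = 0.50 with the first, as a description). Npnt, whose product binds the integrin encoded by Itga8, ranged from 9.61 to 10.33 with losartan and from 9.77 to 10.29 with aliskiren, at a difference of 0.08 (SE 0.16). For this probe set the sign rested on losartan mouse 5, without which the difference was -0.00. With all mice, its other probe sets gave 0.18, 0.26, 0.06 and, from a set just below the level, 0.09. Itga8 had a difference of 0.17 (SE 0.16), or 0.03 without losartan mouse 4.

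The members were highest in different mice. The 3 aquaporin genes, Avpr2 and Elf5 were highest in losartan mouse 4 or aliskiren mouse 4, whereas Kcnj10, Kcne1, Gata3, Tfcp2l1 and Npnt were all highest in losartan mouse 3. In aliskiren mouse 1, Aqp2 lay 0.84, Aqp3 0.77, Aqp4 0.67 and Avpr2 0.37 below their means over the 10 mice (deviations of -0.84, -0.77, -0.67 and -0.37), while Npnt lay 0.33 above its mean. Its injured tubule markers averaged 9.25, the highest with aliskiren, where losartan mice ran from 7.44 to 10.69. The mouse at 10.69 was losartan mouse 3, where Aqp2 deviated by 0.26, Aqp3 by -0.29, Aqp4 by 0.31 and Avpr2 by -0.20. The part of injury in these levels was not tested. Losartan mouse 5 had the lowest Aqp4 and Elf5, with deviations of -1.44 and -0.76, but an Aqp2 at -0.05, an Aqp3 at 0.04 and an Avpr2 at 0.03. Aliskiren mouse 3, whose fat markers were the highest with aliskiren, lay below the mean in all 10 members. Losartan mouse 3, whose fat markers averaged 12.21, the highest of all 10 mice, lay above the mean in 8 of the 10 members. The part of fat tissue in these levels was not tested.

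**Figure D3:**
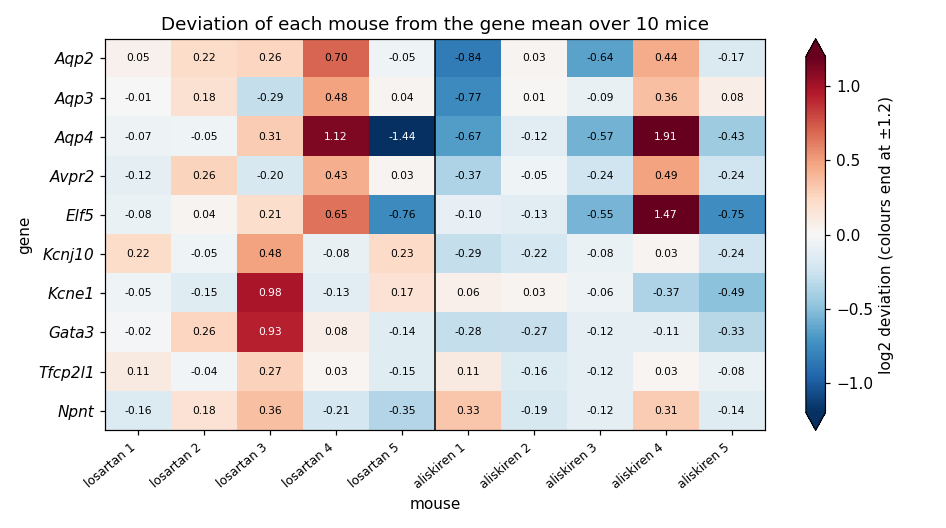
Log2 deviation of each mouse (columns) from the mean of each gene over the 10 mice (rows), red above and blue below, with the drugs separated by a line. Aliskiren mouse 4 and losartan mouse 4 are red for the aquaporin genes, Avpr2 and Elf5, up to 1.91 for Aqp4, and losartan mouse 3 is red for Kcne1 at 0.98 and Gata3 at 0.93.

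Among the 36 pairs of the 9 members tested, 27 had a positive correlation over the 10 mice and 9 a negative one. Members of a pair share the tissue piece and the array. By Pearson correlation, 1 pair passed the threshold, Aqp3 and Avpr2, with Pearson r = 0.83 (permutation p = 0.00101, adjusted over 36 pairs 0.0364) and Spearman rho = 0.79 (adjusted permutation p = 0.102). Without losartan mouse 4 and aliskiren mouse 1, the mice farthest from the median of Aqp3, r was 0.82, and on deviations from the drug means it was 0.82 (exact permutation p adjusted over 36 pairs 0.106). Leaving out 1 mouse at a time kept r between 0.77 and 0.89. The number of pairs past the threshold was 0 when any 1 of 8 mice was left out, was 1 without aliskiren mouse 5 and 3 without losartan mouse 3.

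Aqp2 followed Avpr2 with r = 0.82 (permutation p = 0.00414, adjusted 0.0745; rho = 0.81, adjusted permutation p = 0.102) and Aqp3 with r = 0.79 (permutation p = 0.00724, adjusted 0.0869; rho = 0.62, adjusted permutation p = 0.217). Without aliskiren mice 1 and 3, these were 0.79 and 0.61. Aqp3 and Aqp4 had r = 0.54 (adjusted permutation p = 0.326; rho = 0.53, adjusted permutation p = 0.400). Aqp2 and Aqp4 had r = 0.70 (adjusted permutation p = 0.131) and rho = 0.92 (adjusted permutation p = 0.0212). Without aliskiren mice 1 and 3, r was 0.81. Losartan mouse 5 was the lowest in Aqp4 but near the mean in Aqp2. On deviations from the drug means Aqp2 and Aqp4 had r = 0.84 (exact permutation p adjusted over 36 pairs 0.0025), the only pair to pass in that form. Elf5 and Aqp4 had r = 0.94 (permutation p = 0.00011, adjusted over 9 pairs 0.00099) and rho = 0.92 (adjusted permutation p = 0.00522), and r = 0.78 without losartan mouse 4 and aliskiren mouse 4, farthest from the Elf5 median. Elf5 and Aqp2 had r = 0.62 (adjusted permutation p = 0.168) and rho = 0.82 (adjusted permutation p = 0.0261), and r = 0.35 without the same mice. The Elf5 pairs were added after the data were seen, and 8 of the 10 mice had Elf5 below the level used for testing. They rest on the Elf5 probe set of highest mean only.

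**Figure D4:**
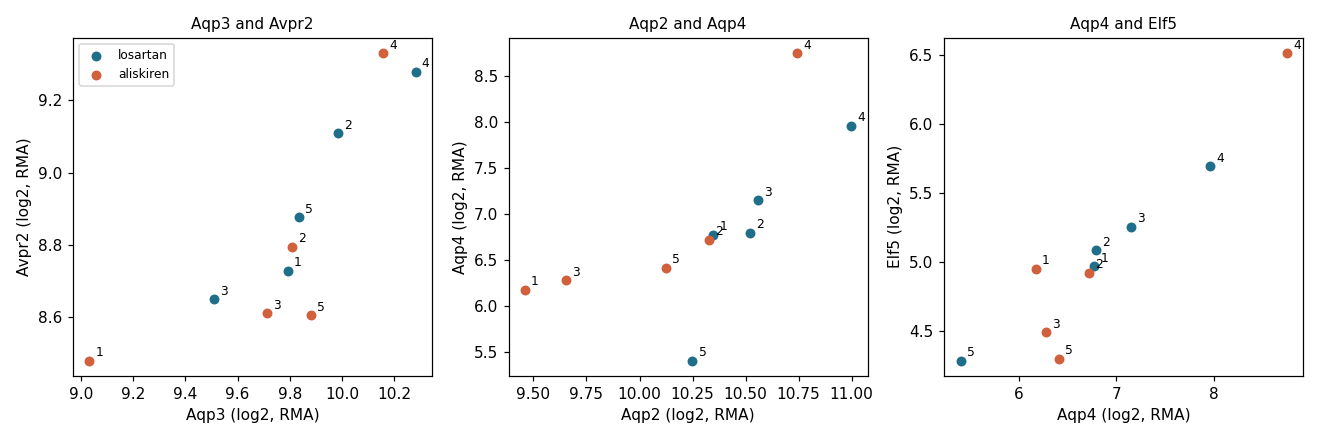
Log2 levels of Avpr2 against Aqp3, Aqp4 against Aqp2 and Elf5 against Aqp4, 1 point per mouse, numbered, losartan in blue and aliskiren in orange. Aliskiren mouse 4 and losartan mouse 4 lie at the upper right of each panel, and losartan mouse 5 falls below the others in the panel of Aqp4 against Aqp2.

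Kcnj10 and Gata3 had r = 0.75 (adjusted permutation p = 0.120; rho = 0.67, adjusted permutation p = 0.198), which was 0.41 without losartan mouse 3 and 0.55 without losartan mice 3 and 5. Kcne1 and Gata3 had r = 0.77 (adjusted permutation p = 0.180) with rho = 0.12 (adjusted permutation p = 0.88), but r was 0.03 without losartan mouse 3 and -0.43 without that mouse and aliskiren mouse 5, so this relation rested on losartan mouse 3. Aqp3 and Kcne1 ran in opposite directions, with r = -0.47 (adjusted permutation p = 0.42; rho = -0.70, adjusted permutation p = 0.198).

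The mean level of thick ascending limb markers, from a neighbouring segment, was also highest in aliskiren mouse 4. Of 7 such markers 5 were above the level, with Cldn19 and Kcnt1 below it, and their mean was 12.12 in that mouse, against 11.36 to 11.71 in the other aliskiren mice and 11.01 to 11.93 with losartan. Slc12a1, the salt cotransporter of that segment, stood at 13.56 in aliskiren mouse 4 and Umod, its main secreted protein, at 14.54, the highest of the 10 mice for each. Cldn16, a tight junction gene of that segment, went another way, with 8.82 in that mouse and its highest level, 9.40, in losartan mouse 2. Slc5a3, which imports the osmolyte myo-inositol, had 11.995 there against 10.41 to 10.81 in the other aliskiren mice. The urea transporter gene Slc14a2 of the inner medulla, at 6.01, lay within the range of the other mice, 5.70 to 6.16. The medulla and papilla list, 4 of 12 genes above the level with Slc14a1, Bdkrb2, Upk3a and Krt5 below it, ran from 7.28 to 8.20 with losartan and from 7.55 to 7.78 with aliskiren. The 7.78 was that of aliskiren mouse 4, and the 8.20 that of losartan mouse 3. Of the genes below the level, Slc14a1 was highest in aliskiren mouse 4 (4.24, next 4.22 in aliskiren mouse 2). Bdkrb2 was too (4.15, next 4.14 in losartan mouse 1). Upk3a and Krt5 were highest in losartan mouse 3. The part of these segments in the Aqp4 and Elf5 levels was not tested.

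By likeness of pattern over the 10 mice, taken over all 11486 genes and given as a description, the genes outside the members closest to Aqp2 were C1qtnf4 (r = 0.93), Slc38a10 (0.87), Btc (0.87), Car15 (0.86) and Klhl36 (0.84). Car15, a membrane-bound carbonic anhydrase gene, was at 11.70 ± 0.18 in losartan mice against 11.24 ± 0.20 in aliskiren mice, which is a difference of -0.46 (SE 0.11, limma adjusted p = 0.945). Its groups did not overlap, as in 0.914% of all genes tested. The ranking took both drugs together, so a drug difference like that of Aqp2 or Kcnj10 could raise r. On deviations from the drug means, r of Car15 with Aqp2 was 0.86. The genes closest to Kcnj10 were Scnn1g (r = 0.96), Zfp385b (0.94), Ppm1a (0.91), Nrarp (0.91) and Ankrd12 (0.91). Scnn1g, the gamma subunit of the epithelial sodium channel, was at 8.999 ± 0.24 in losartan mice against 8.66 ± 0.11 in aliskiren mice, or -0.25 apart without losartan mouse 3. On deviations from the drug means its r with Kcnj10 was 0.92. Neither Scnn1g nor any other of the 10 genes of a list of this channel and of mineralocorticoid response passed the adjusted threshold. In this list 9 of 10 were lower, against 53.8% of all genes tested, and the median was -0.32. Of the 9, 4 had an unadjusted limma p under 0.05, where 2.53% of all genes tested were lower at such a p. The list was chosen with earlier results of these data known, and its genes share the tissue piece and the array. The counts are therefore a description. Scnn1a differed by -0.40 (SE 0.08), Scnn1b by -0.35 (SE 0.13; -0.22 without losartan mouse 3) and Scnn1g by -0.34 (SE 0.11).

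The wider vasopressin cascade showed small differences in both directions. In a list of 28 genes for cAMP signalling and the traffic of aquaporin-2, 25 were tested, 16 lower and 9 higher with aliskiren, 0 at an adjusted and 0 at an unadjusted limma p under 0.05, with a median difference of -0.04. The vesicle protein gene Vamp2 differed by -0.17 (SE 0.08; -0.10 without losartan mouse 4), the adenylyl cyclase gene Adcy3 by 0.16 (SE 0.09) and the motor protein gene Myo5b by 0.15 (SE 0.09). Adcy3 had the opposite sign, -0.02, when all its probe sets were averaged. Of 9 other aquaporin genes 5 were tested, 3 lower and 2 higher, with a median of -0.02. Aqp6 differed by -0.15 (SE 0.18), and by -0.0051 without losartan mouse 4. Aqp7 differed by 0.13 (SE 0.16), and by 0.03 without aliskiren mouse 5. Aqp12 differed by 0.09 (SE 0.09), and by 0.02 without losartan mouse 3.

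Other potassium channel and sodium pump genes did not share a direction. Of 16 listed genes 11 were tested, 6 lower and 5 higher, with a median of -0.02. Of these, 1, Kcnq1, had an unadjusted limma p under 0.05, as did 4.72% of all genes tested. Kcnj15 differed by 0.16 (SE 0.11), or 0.06 without losartan mouse 3. Among 22 collecting duct and nephric duct transcription factor genes 17 were tested, of which 11 were lower and 6 higher, with a median of -0.14. Of these, 5 lower and 2 higher genes had an unadjusted limma p under 0.05 and 0 an adjusted one. Over all genes tested, 2.53% were lower and 2.19% higher at such an unadjusted p. As this list too was chosen with earlier results known, these counts are a description. The 3 genes of smallest unadjusted limma p in the list were all lower. Of these, Hoxd8 differed by -0.37 (SE 0.10), Emx1 by -0.23 (SE 0.08) and Hoxd3 by -0.25 (SE 0.08). Of 10 genes around nephronectin, its integrin and the Fraser complex, 6 were tested, 1 lower and 5 higher, with a median of 0.18, and 0 passed at either an adjusted or an unadjusted limma p under 0.05. Frem2 differed by 0.25 (SE 0.12) and Fras1 by 0.24 (SE 0.16), or 0.08 for Fras1 without losartan mouse 3.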

How the data were processed

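Renal cortex RNA of 10 mice, 5 per drug, was measured on Affymetrix arrays, 1 array per mouse. The authors deposited log2 expression values, which the submitters' processing notes credit to RMA and to version 1.1 of Affymetrix Expression Console. RMA brings the arrays to a common distribution, so an overall difference in RNA amount is no longer visible. Arrays have no depth, and 5 per group limit the precision. Of 45101 probe sets 64 were controls, and 34945 of the rest had 1 gene symbol (18193 genes, named through RefSeq where the identifier matched). Each gene was its probe set of highest mean, and 11486 genes with a mean of at least 5.53 were tested by limma 3.58.1 under R 4.3.3 (a moderated two-sided test on the drug alone, Benjamini-Hochberg over all genes tested). Exact permutation used all 252 splits, where the smallest p is 0.00794. Pair correlations used 100000 permutations, or the exact permutations within drugs for deviations from the drug means. RefSeq promoter windows of 8 members were searched. Figures used matplotlib 3.10.9, and the fit was tested on simulated data.

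The members and lists were chosen with earlier results of these data known. The rule names the members, the 3 genes of smallest p per list, the channel and integrin partners, the 5 genes most like Aqp2 and Kcnj10, the top gene of each marker list and fixed readouts; of the readouts and marker genes only those that bear on a member are named. Upk3a and Slc12a1 were chosen after their values were seen. The mouse number was used as a name only. Same-numbered mice correlated at -0.23 to 0.42 in their deviations from the group means, which does not decide whether the numbers pair the mice. Alternatives covered the level filter, probe set, scaling, variance model, array weights, the block, the threshold and leaving out mice.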

Additional observations from a re-analysis of the deposited data

Results flagged for a closer look

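These values lay farther from the rest of their group of 5 mice than a gap test at the 95% level allows. The test covered 100 groups, each the mice of 1 drug for 1 gene, and singled out 10 values, where chance alone would give about 1 in 20 groups. Aqp4 stood at 8.75 in aliskiren mouse 4, with the other aliskiren mice at 6.17 to 6.72. Slc5a3, the myo-inositol transporter gene, stood at 11.995 in the same mouse, with the others at 10.41 to 10.81. In losartan mouse 3 Kcne1 stood at 7.66, with the other losartan mice at 6.53 to 6.85. That mouse was also high in the fat genes Fabp4 (13.79, others 9.46 to 10.15) and Adipoq (12.96, others 3.43 to 3.82). Adipoq with aliskiren was not flagged but stood at 9.90 in mouse 3 and 7.35 in mouse 2, against 3.17 to 3.96 in the others. Losartan mouse 3 was low in Kcnj16 (11.96, others 12.27 to 12.31), in Fras1 (8.19, others 8.93 to 9.05) and in Slc14a2 (5.70, others 6.06 to 6.16). Vamp2 was low in aliskiren mouse 5 at 8.16, with the others at 8.28 to 8.31, and Myo5b was high in losartan mouse 2 at 10.05, with the others at 9.63 to 9.73.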

How the results depend on the processing

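No alternative brought a gene or a member past limma's adjusted threshold, at 0.05 or at 0.1, and the lowest adjusted p of a member was 0.695 over 23 alternatives. Over the mice left out in turn, the difference turned in sign for Aqp4 (-0.42 to 0.34), Npnt (-0.0032 to 0.18), Aqp3 (-0.27 to 0.0099) and Elf5, which was not tested (-0.39 to 0.16). Without losartan mouse 4 and aliskiren mouse 4, chosen after seeing the data, Aqp4 was -0.13 and Npnt -0.035. With all probe sets averaged, Adcy3 was -0.019 and Slc38a10 0.025, and Adcy3 was -0.045 with the most variable probe set. The median of the nephronectin partners was 0.067 with no level filter, 0.056 without losartan mouse 3 and aliskiren mouse 1 (also chosen after seeing the data) and 0.09 to 0.25 over the mice left out in turn, and that of the vasopressin list was 0.024 with probe sets averaged. The count of member pairs past the threshold, 1, was 0 with probe sets averaged and ran from 0 to 3 over the mice left out. The cause was not tested for any of these. Mouse numbers were not used to pair the samples. Of the 10 mice, 4 correlated best with their own number, which does not decide whether the numbers pair the mice. With the replicate block by mouse number, 0 genes and 0 members were called, genes at unadjusted p under 0.05 numbered 450 against 542, members at unadjusted p under 0.05 numbered 3 against 2, and the median difference of the members was again -0.16. That count of members was 4 without aliskiren mouse 4. It was 1 without losartan mouse 2 or without aliskiren mouse 1, 2 or 5, with a level filter at the 75th percentile, with the ordinary t statistic, and without losartan mouse 3 and aliskiren mouse 1 together. It was 3 without losartan mouse 4 and aliskiren mouse 4 together. The number of arrays, and for Elf5 a signal below the level used, limit what could be detected.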

Other observations

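Aqp2, Aqp5 and Aqp6 are neighbours on chromosome 15 in the RefSeq table. Aqp6, which encodes a channel of acid-secreting intercalated cells, had log2 levels of 9.39, 9.47, 9.17, 10.01 and 9.14 in losartan mice 1 to 5 and 8.98, 9.23, 9.25, 9.74 and 9.23 in aliskiren mice 1 to 5. As for Aqp2, losartan mouse 4 was highest and aliskiren mouse 1 lowest. Aqp5 had a mean of 4.22, below the level used for testing.

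Several further genes of these lists were, as Aqp4 and Elf5 were, highest in aliskiren mouse 4. The prostaglandin receptor gene Ptger3, whose product dampens the vasopressin response, stood at 10.89 there against 8.68 in losartan mouse 5, its lowest. Irx1, a nephron patterning factor gene, stood at 9.30, Sim1 at 8.13 and the potassium channel gene Kcnj1 (ROMK) at 11.34 in aliskiren mouse 4. These genes were chosen after their values were seen, and they are given as values only.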
